A study of Mus musculus with 8 samples.

Results

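The genes examined were the 9 TGF-beta genes Tgfb1, Tgfb2, Tgfb3, Tgfbr1, Tgfbr2, Tgfbr3, Inhba, Ltbp1 and Ltbp2, taken as every non-control probe whose gene name in the scanner files is one of these symbols. They were 9 of the 27745 genes named on the array and had 13 of its 41174 gene probes. Of these probes, 12 passed the filter on dim spots, and each of the 9 genes kept at least 1 probe, among 14727 genes with a kept probe in all. RNA came from mouse embryonic fibroblasts (MEFs), primary cells grown out of embryos, of Lats2-/- and Lats2+/+ genotype. Both genotypes carried the strain name C57BL/6J, and all cells were kept in DMEM with inactivated fetal bovine serum and antibiotics and received no treatment. There were 3 litters, numbered 112, 116 and 121, and each gave 1 Lats2-/- and 1 Lats2+/+ clone, so that the 6 RNA extracts formed 3 littermate pairs. Each clone is named separately in the labels, so a genotype difference within 1 litter is also a difference between a single pair of cultures. The labels do not say whether the cells lack Lats2 by a constitutive deletion, and no embryonic age was given. Serum in the medium was common to both genotypes.

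TGF-beta ligands are secreted as dimers that stay bound to their own propeptide, and latent TGF-beta binding proteins tether this latent complex to the extracellular matrix. Once released, a ligand binds the type II receptor, which recruits and phosphorylates the type I receptor, and the type I receptor phosphorylates SMAD2 and SMAD3, which enter the nucleus with SMAD4. In fibroblasts the pathway is known for driving matrix and contractile genes, while LATS2, a kinase of the Hippo pathway, restrains the coactivators YAP and TAZ, which share several target genes with the SMAD proteins.

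Among these genes, transcripts of the type II receptor Tgfbr2 were higher and those of the latency protein Ltbp1 lower in Lats2-/- cells of every litter, at an unadjusted p under 0.05 but not after adjustment across the array. Tgfb1 was also higher in all 3 litters, by an amount that differed widely between them. In Ltbp2, Inhba and Tgfb2 the ratio ranged over more than 2 on the log2 scale between litters and changed sign, and Ltbp2 had large differences both ways, being 3.12-fold and 5.01-fold higher in litters 112 and 116 and 6.04-fold lower in litter 121.

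A litter's extracts were hybridised together, in Cy3 and Cy5. Slide 1 held a dye-exchanged pair of arrays for litter 112 and for litter 116 (2 arrays per litter), and slide 2 held 4 arrays of litter 121, giving 8 in all. Median spot intensities per array were 60.9 to 68.2 in green and 83.1 to 94.2 in red, and 52.9% to 61.3% of gene probes rose well above background per genotype. The targeted gene was checked first. The Lats2 probe A_52_P425064 had log2 ratios of Lats2-/- over Lats2+/+ of -1.33, -1.05 and -0.56 in litters 112, 116 and 121, and it was lower on 8 of 8 arrays. The other 3 Lats2 probes were lower in litters 112 and 116 but higher in litter 121, with ratios of 0.80 to 1.17, so that they went against the label of the Lats2-/- extract of litter 121. Whether they lie outside the deleted part of the gene is not given in the sources used here. Across genes the litter ratios were nearly unrelated, with Pearson's r of 0.135, 0.057 and -0.003 for the 3 pairs of litters over 14727 genes, which are not independent replicates. All 10 fibroblast markers stood well above background in 4 or more of the 6 extracts. Their levels were uneven, and the median ratio of these markers was 0.27, 1.95 and -0.95 in litters 112, 116 and 121. Of the markers of other cell types, 1 of 6 epithelial, 1 of 6 endothelial, 2 of 6 macrophage, 1 of 6 skeletal muscle and 3 of 5 neural genes were well above background in 4 or more extracts. The epithelial one was Krt19, a keratin, with a ratio of 1.83 in litter 121, while in litters 112 and 116 it was well above background in the Lats2-/- extract but not in the wild-type one. The endothelial one was Tek, at dim log2 signals of 6.36 to 6.68. The macrophage genes were Lyz2 and Cd68, the neural ones Nes, Sox10 and Tubb3, and the muscle one Actc1, an actin, with log2 signals of 10.34 to 15.20. The epithelial genes Krt8 and Krt18 were above background only in the wild-type extract of litter 116, and Cdh1 and the endothelial Kdr only in the Lats2-/- extract of litter 121. None of the 4 endothelial genes Cdh5, Emcn, Pecam1 and Tie1 rose above background in any extract, nor did the epithelial genes Epcam and Cldn6, the macrophage genes Ptprc, Adgre1 and Aif1 or the muscle genes Myod1, Myog, Myf5, Des and Myh3. With whole cultures, a change in the share of cells of a type and a change in RNA per cell cannot be told apart.

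The promoters of the genes with 1 direction in all 3 litters are shown here, because these are the genes whose genotype ratio had the same sign in every litter. RefSeq windows of 300 bases, from 250 before to 50 after the start on build GRCm38.p6, were found for 7 of the 9 genes (9 windows, since Tgfbr1 and Ltbp1 have more than 1 start). Each is printed 5′ to 3′ on the strand of its gene, in lower case, with capitals for the SMAD-binding core CAGAC and the SP1 box GGGCGG on either strand (GTCTG and CCGCCC). Tgfb1 lies at chr7:25686752-25687051 on the plus strand, Tgfbr2 at chr9:116175314-116175613 on the minus strand, and the Ltbp1 starts at chr17:75005279-75005578 and chr17:75178531-75178830 on the plus strand.
Tgfb1: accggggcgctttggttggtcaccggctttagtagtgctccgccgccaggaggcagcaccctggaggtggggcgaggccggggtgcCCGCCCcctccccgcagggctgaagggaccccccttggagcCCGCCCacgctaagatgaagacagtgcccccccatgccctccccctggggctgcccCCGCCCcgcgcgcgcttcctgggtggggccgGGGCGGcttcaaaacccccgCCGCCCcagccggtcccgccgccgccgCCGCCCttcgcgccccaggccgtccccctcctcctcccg
Tgfbr2: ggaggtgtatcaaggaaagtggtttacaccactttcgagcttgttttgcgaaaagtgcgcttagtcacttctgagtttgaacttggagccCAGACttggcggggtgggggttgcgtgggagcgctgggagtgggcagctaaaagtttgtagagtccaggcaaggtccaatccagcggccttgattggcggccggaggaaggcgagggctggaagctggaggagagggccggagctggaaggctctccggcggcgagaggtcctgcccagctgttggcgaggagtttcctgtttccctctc
Ltbp1, upstream start: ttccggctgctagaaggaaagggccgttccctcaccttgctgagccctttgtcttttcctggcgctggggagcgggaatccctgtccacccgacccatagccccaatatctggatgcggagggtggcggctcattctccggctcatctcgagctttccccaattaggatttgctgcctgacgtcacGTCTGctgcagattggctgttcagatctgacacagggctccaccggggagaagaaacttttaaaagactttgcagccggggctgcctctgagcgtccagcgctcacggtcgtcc
Ltbp1, downstream start: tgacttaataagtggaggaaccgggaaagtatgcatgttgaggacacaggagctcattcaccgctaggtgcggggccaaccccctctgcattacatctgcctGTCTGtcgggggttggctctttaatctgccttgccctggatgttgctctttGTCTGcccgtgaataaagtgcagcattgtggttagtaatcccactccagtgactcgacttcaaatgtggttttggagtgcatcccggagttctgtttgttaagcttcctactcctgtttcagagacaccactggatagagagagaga

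The Tgfb1 window held 6 SP1 boxes in a sequence of 77.0% G and C, and no CAGAC. The Tgfbr2 window held 1 CAGAC, and the Ltbp1 windows held 1 and 2 of them, without an SP1 box. The CAGAC core occurred in 6 of the 9 windows of the TGF-beta genes and in 49.6% of 32851 windows of all genes, and the SP1 box in 3 of 9 and in 35.7%. Neither GGAATG, the core read by the TEAD factors through which YAP acts, nor the AP-1 site TGANTCA was found on either strand of these 9 windows, where 14.7% and 7.81% of all windows held them. The windows printed do not hold overlapping matches of different motifs. Matches of so few letters describe the sequence and are not binding sites.

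The levels of the 9 genes in the 6 extracts were read as log2 signal, which can be compared between extracts within a probe but not between probes. In none of these genes did the 3 Lats2-/- extracts lie clear of the 3 Lats2+/+ extracts (0 of 9 genes, against 6.23% of all 14727 genes). Every genotype difference described for the 9 genes thus rests on the comparison of littermates.

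**Figure D1:**
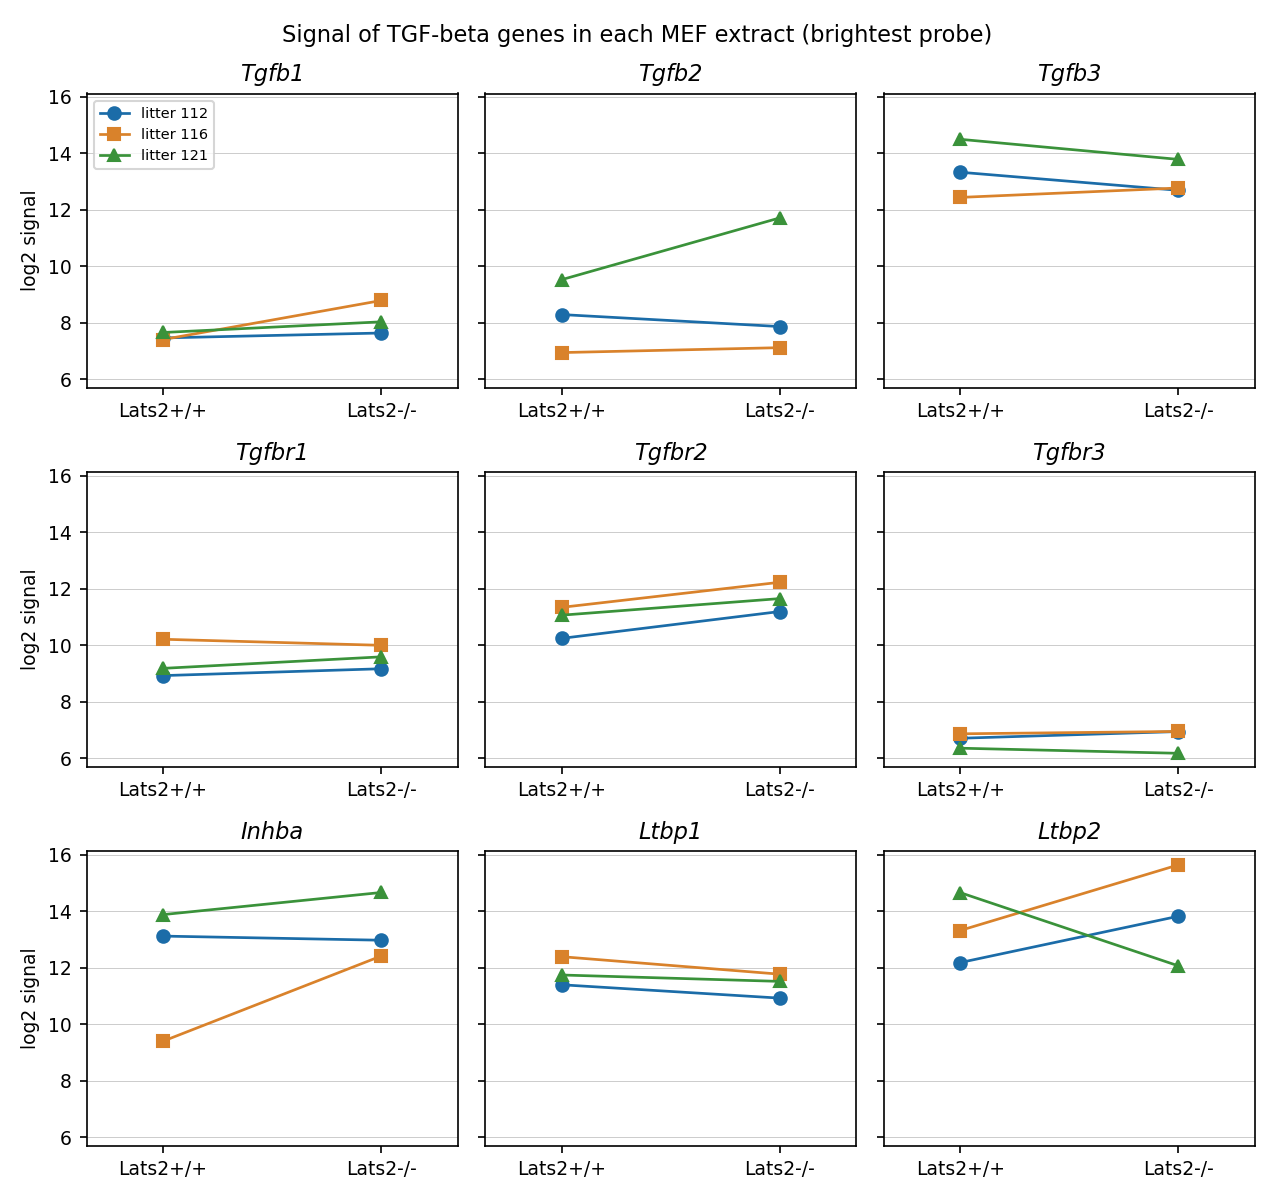
Log2 signal (vertical axis) of the brightest kept probe of each TGF-beta gene in the Lats2+/+ and Lats2-/- extract of each litter, with a line joining littermates and 1 point per extract (mean of 2 or 4 arrays). All 3 lines rise for Tgfb1 and Tgfbr2 and fall for Ltbp1, while those of Ltbp2 cross; heights are not comparable between panels.

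The ligands were compared first. Tgfb1 encodes the founding ligand of the family. Its probe, on chromosome 7 from 25413618 to 25413677 (mm8, the build in the file headers), was spotted 10 times per array. Log2 signals in Lats2+/+ cells were 7.46, 7.40 and 7.65 in litters 112, 116 and 121, and those in Lats2-/- cells were 7.64, 8.79 and 8.03. The wild-type extracts were thus close together, with a range of 0.25, and the Lats2-/- extract of litter 116 stood above the others. The log2 ratios were 0.17, 1.38 and 0.38, averaging 0.65 ± 0.65 (SD over 3 litters), which is 1.56-fold, with a 95% interval of -0.16 to 1.45 (limma adjusted p = 0.726). All 8 arrays had a higher value in Lats2-/- cells. Within an array the ratios of the repeat spots of Tgfb1 had an SD of 0.06 to 0.10, which covers spot noise only and not the spread between cultures. The result leaned on litter 116, without which the mean was 0.28.

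Tgfb2, a ligand prominent in development of mesenchyme and neural crest derivatives, was read by a probe on chromosome 1 (188324443 to 188324502). Its log2 signals were 8.29, 6.94 and 9.52 in Lats2+/+ cells and 7.86, 7.12 and 11.71 in Lats2-/- cells. Litter 121 was the highest in both genotypes, and litter 116 the lowest in both. The ratios of -0.42, 0.17 and 2.19 gave a mean of 0.65 ± 1.37 (SD over 3 litters), with an interval of -0.99 to 2.28 (limma adjusted p = 0.830). Only litter 121 showed a difference of more than 2-fold, at 4.56-fold, and the mean was -0.13 without it and 1.18 without litter 112. In that litter the Lats2-/- extract also had 3.40 on the log2 scale more of the macrophage gene Lyz2 and 4.10 more of Nes, an intermediate filament of neural progenitors and other immature cells. Of the other kept markers of these lists, Sox10 and Tubb3 had ratios there of -0.09 and 0.40, Csf1r was not well above background in either extract of that litter, and Cd68 was not in the Lats2-/- one, so that neither gives a ratio. The summed signal of the 5 neural markers was 967 to 7030 in Lats2-/- and 856 to 1430 in Lats2+/+ extracts, with Sox2 at background, and that of the 6 macrophage markers was 566 to 3810 and 529 to 685, with Ptprc at background. The part of such cells in the Tgfb2 level was not tested.

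Tgfb3, the third ligand, had a bright probe on chromosome 12 (86945957 to 86946016). Log2 signals were 13.33, 12.44 and 14.50 in Lats2+/+ and 12.69, 12.77 and 13.79 in Lats2-/- cells. Litters 112 and 121 were lower in Lats2-/- cells and litter 116 higher. The ratios of -0.64, 0.33 and -0.71 averaged -0.34 ± 0.58 (SD over 3 litters), with an interval of -1.08 to 0.40 (limma adjusted p = 0.799). The mean was -0.19 without litter 112, -0.68 without litter 116 and -0.15 without litter 121.

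Inhba encodes the beta A subunit of activin A, a ligand that signals through its own receptors to the same SMAD2 and SMAD3. On its probe (chromosome 13, 15817688 to 15817747) the log2 signals were 13.12, 9.40 and 13.89 in Lats2+/+ cells and 12.98, 12.42 and 14.67 in Lats2-/- cells. The wild-type extract of litter 116 stood far below the other 5, and it gave Inhba the widest range of the 9 genes over the extracts, 5.27 on the log2 scale. The ratios were accordingly -0.15, 3.02 and 0.78, where 3.02 is 8.11-fold. Their mean was 1.22 ± 1.63 (SD over 3 litters), with an interval of -0.72 to 3.16 (limma adjusted p = 0.754), and it was 0.32 without litter 116 and 1.90 without litter 112. In that wild-type extract the summed signal of the 10 fibroblast markers was also the lowest of the 6, at 189000, against 215000 to 493000 in Lats2-/- and up to 390000 in the other Lats2+/+ extracts. The markers did not move alike in that litter. The ratio of the decorin gene Dcn was 6.22 and that of Lum 5.48, while Pdgfra was at 0.13, Vim at -1.19 and Fbln1 at -2.25, and the wild-type extract was the highest of the 6 for Vim and Fbln1. The bearing of this on Inhba was not tested.

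The receptors were compared next. TGF-beta receptor II is the ligand-binding kinase without which the canonical signal does not start. Tgfbr2 had 3 probes on chromosome 9, of which only A_51_P450573 (115936735 to 115936794, made for NM_009371) was bright. Its log2 signals were 10.24, 11.34 and 11.07 in Lats2+/+ and 11.20, 12.23 and 11.65 in Lats2-/- cells. Every Lats2-/- extract exceeded its littermate, although the lowest Lats2-/- extract lay below the highest wild-type extract. The ratios were 0.95, 0.89 and 0.59, or 1.93-fold, 1.85-fold and 1.50-fold. They averaged 0.81 ± 0.19 (SD over 3 litters), that is 1.75-fold, with an interval of 0.46 to 1.16 (limma adjusted p = 0.711). Its unadjusted limma p = 0.00335 stood beside an exact sign-flip permutation p = 0.25, the smallest that 3 litters allow, and any of these genes with a single sign reaches it. The ratio was above 0 on 8 of 8 arrays, from 0.48 to 1.04. By p, Tgfbr2 ranked 77 of 14727 genes. After adjustment the same limma fit called none of the 14727 genes (0%), and 1549 of the 22642 kept probes had an unadjusted p under 0.05.

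The other Tgfbr2 probes did not show this difference. A_52_P251403 (115958776 to 115958835), made for the transcript NM_029575, was close to background at log2 signals of 6.37 to 6.79, and its ratios were 0.01, 0.26 and 0.01, with a mean of 0.09 ± 0.14 (SD over 3 litters; limma adjusted p = 0.873) and an interval of -0.22 to 0.41. A_52_P3811, made for AK090393, passed the background flag on 1 of 8 arrays per genotype and was not tested. With the mean of both kept probes in place of the bright one, the Tgfbr2 ratio was 0.45.

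Tgfbr1 encodes the type I receptor kinase that phosphorylates the receptor-regulated SMAD proteins. Its brighter probe, A_52_P4538 (chromosome 4, 47435649 to 47435708), had log2 signals of 8.93, 10.21 and 9.18 in Lats2+/+ and 9.17, 10.00 and 9.59 in Lats2-/- cells. The ratios of 0.24, -0.21 and 0.41 differed in sign between litters, with a mean of 0.15 ± 0.32 (SD over 3 litters) and an interval of -0.32 to 0.61 (limma adjusted p = 0.864). The mean was 0.10 without litter 112, 0.33 without litter 116 and 0.01 without litter 121. This probe carried a dye difference. With Lats2-/- RNA in Cy5 the ratios were 0.52 (litter 112), 0.08 (litter 116), 0.77 and 0.76 (litter 121). With Lats2-/- RNA in Cy3 they were -0.04, -0.51, 0.03 and 0.07, so the litter means depend on the balance of both orientations. The dimmer probe A_51_P280137, 47428126 to 47431784, had log2 signals of only 6.41 to 7.05. Its mean was -0.04 ± 0.07 (SD over 3 litters), with an interval of -0.32 to 0.24 (limma adjusted p = 0.944). At such low signals a change could have gone undetected.

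Tgfbr3 encodes betaglycan, a coreceptor that presents ligand, TGF-beta 2 above all, to the signalling receptors. Its probe (chromosome 5, 107349188 to 107349247) was dim and passed the background flag on 5 of 8 arrays in the Lats2-/- channel and on 7 of 8 in the other. The log2 signals were 6.71, 6.86 and 6.35 in Lats2+/+ and 6.94, 6.95 and 6.17 in Lats2-/- cells. The ratios of 0.24, 0.08 and -0.18 had a mean of 0.05 ± 0.21 (SD over 3 litters) and an interval of -0.32 to 0.41 (limma adjusted p = 0.952). In litter 121 the Lats2-/- extract was not well above background, and without that litter the mean was 0.16. At signals so close to background a change in Tgfbr3 could have gone undetected, and that interval does not limit its size.

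Of the latency proteins, LTBP1 binds the latent TGF-beta complex covalently and directs its storage in the matrix. Ltbp1 was measured by 2 probes on chromosome 17 that lie far apart, at 75295778 to 75295911 and at 75130373 to 75130432. The brighter, A_51_P281716, had log2 signals of 11.40, 12.39 and 11.75 in Lats2+/+ and 10.93, 11.77 and 11.52 in Lats2-/- cells. Each Lats2-/- extract was below its littermate, while the groups overlapped. The ratios of -0.47, -0.62 and -0.23 gave a mean of -0.44 ± 0.20 (SD over 3 litters), or 1.36-fold lower, with an interval of -0.80 to -0.09 (limma adjusted p = 0.711). The unadjusted limma p = 0.0266 stood beside an exact permutation p = 0.25, again the smallest possible. The other probe, A_52_P189946, had ratios of -0.46, -0.61 and -0.31, averaging -0.46 ± 0.15 (SD over 3 litters; limma adjusted p = 0.711, unadjusted p = 0.0169, exact permutation p = 0.25). Both probes were lower in Lats2-/- cells on 8 of 8 arrays. The probes read the same extracts and are not separate replicates. Without litter 112 or without litter 116 the brighter probe had means of -0.42 and -0.35, and its unadjusted limma p was no longer under 0.05.

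LTBP2 is a matrix protein of the same family that associates with fibrillin microfibrils and, unlike LTBP1, is not known to bind latent TGF-beta covalently. On the Ltbp2 probe (chromosome 12, 85672971 to 85673030) the log2 signals were 12.19, 13.32 and 14.67 in Lats2+/+ cells and 13.83, 15.65 and 12.07 in Lats2-/- cells. The order of the litters differed between genotypes, litter 121 being the highest of the wild-type extracts and the lowest of the Lats2-/- extracts. The ratios were 1.64, 2.33 and -2.60. They averaged 0.46 ± 2.67 (SD over 3 litters), with an interval of -2.70 to 3.61 (limma adjusted p = 0.947). The arrays within each litter pointed the same way, from 1.50 to 2.44 on the 4 arrays of litters 112 and 116 and from -2.67 to -2.52 on the 4 arrays of litter 121. The mean was 1.98 within slide 1, which is without litter 121, -0.14 without litter 112 and -0.48 without litter 116. In litter 121 fibroblast markers ran the same way, with ratios of -3.66 for Thy1, -3.42 for Col3a1 and -1.94 for Dcn. Pdgfra was not well above background in that Lats2-/- extract, so its value of -4.96 is not an exact ratio. Fbln1 had a ratio of 0.78 and Vim of -0.07 in that litter. The Lats2-/- extract of litter 121 is also the one in which 3 Lats2 probes went against the label. The part of these differences in the Ltbp2 ratio was not tested.

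**Figure D2:**
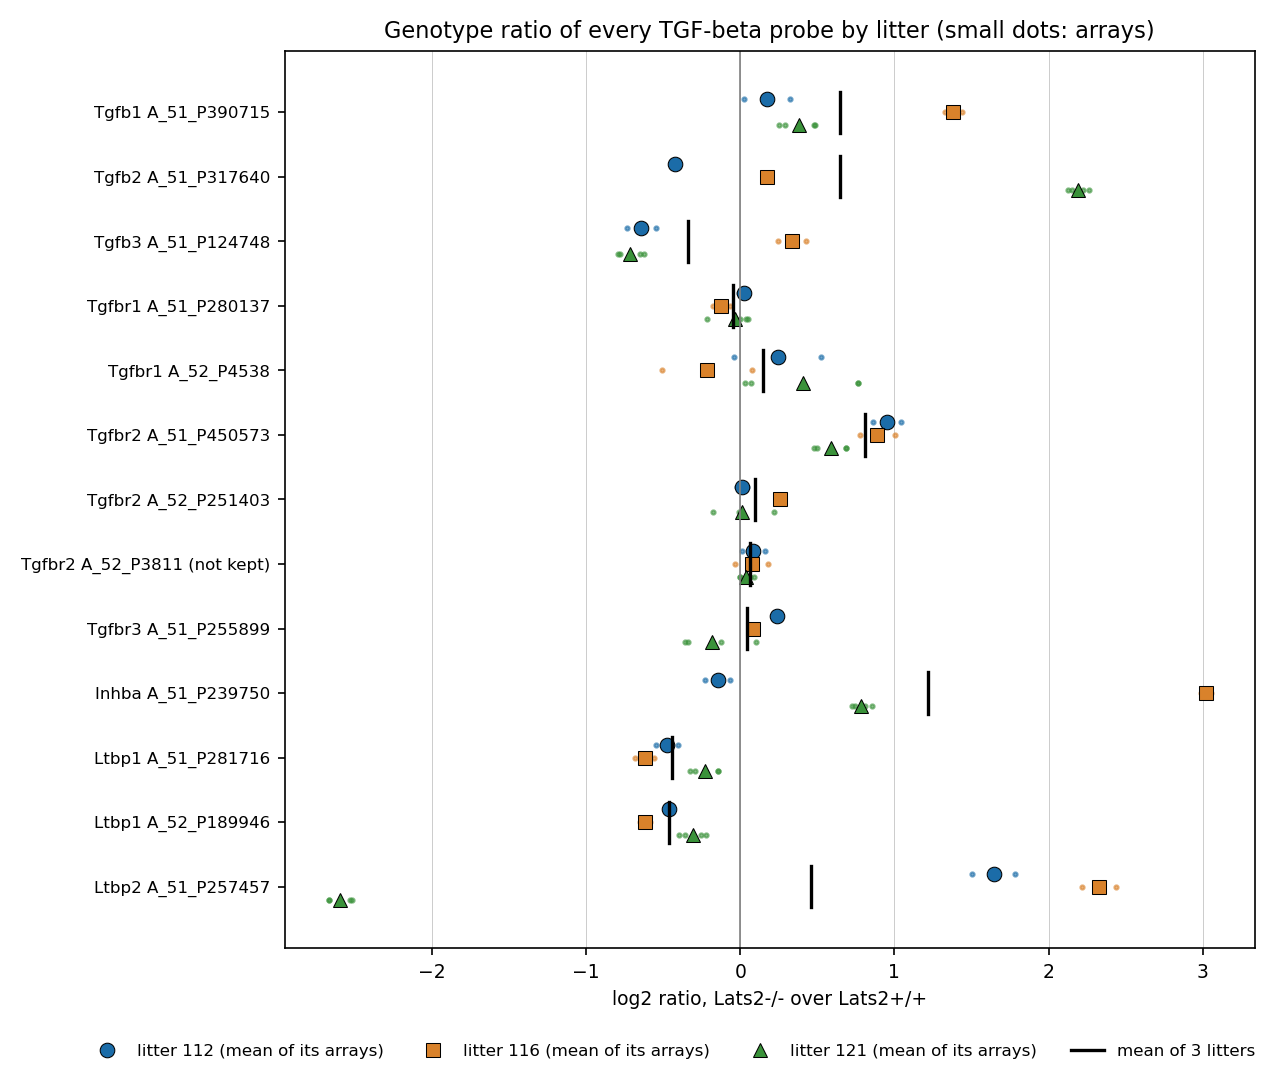
Log2 ratio of Lats2-/- over Lats2+/+ (horizontal axis) for all 13 probes of the TGF-beta genes: large symbols are litters, small dots single arrays and black bars the mean of 3 litters. The bright Tgfbr2 probe lies at 0.59 to 0.95 and both Ltbp1 probes lie between -0.62 and -0.23, while Ltbp2 spans -2.60 to 2.33.

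Counts over the 9 genes were read against the whole array, with the brightest kept probe of each gene. One gene of 9, Tgfbr2, was higher at an unadjusted limma p under 0.05, where 4.15% of all genes were, and 1 of 9, Ltbp1, was lower, where 3.45% were. Higher in all 3 litters were Tgfb1 and Tgfbr2, 2 of 9 genes against 15.9%, and lower in all 3 was Ltbp1, 1 of 9 against 14.1%. The remaining 6 genes had both signs, as did 10305 of all 14727 genes. At least 2-fold in opposite directions in different litters was 1 of 9, Ltbp2, against 2.25%. The range between the highest and the lowest litter ratio was at least 2 on the log2 scale in 3 of 9 genes (Tgfb2, Inhba and Ltbp2), against 6.8%. By that range, 0.631% of all genes were as wide as Ltbp2 (4.92), 2.66% as wide as Inhba (3.17) and 4.14% as wide as Tgfb2 (2.62). Tgfbr2, at 0.36, and Ltbp1, at 0.39, were the steadiest of the 9 genes, and 65.7% and 62.6% of genes had ranges as wide or wider. The median of the mean ratios was 0.46 over the 9 genes and 0.01 over all genes, but the median gene was Ltbp2, and the value was 0.10 without litter 112, 0.28 without litter 116 and 0.16 without litter 121. With 9 genes that were chosen with results known, these counts are a description.

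**Figure D3:**
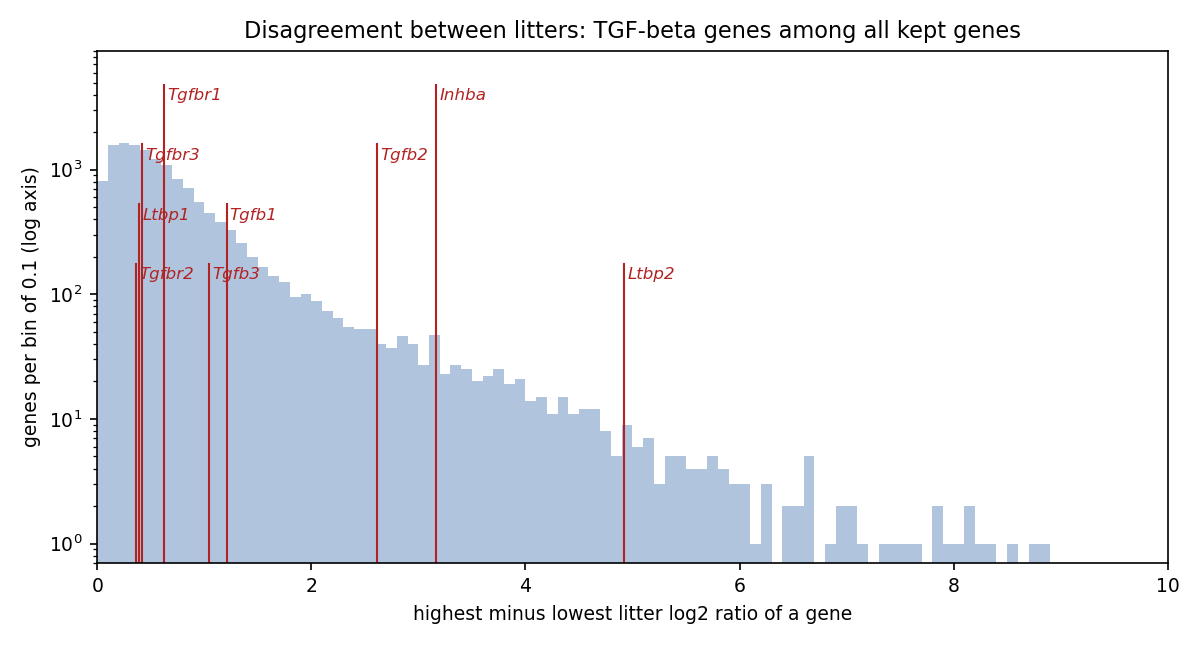
Histogram of the range between the highest and lowest litter log2 ratio for 14727 genes (bins of 0.1, log count axis), with red lines at the 9 TGF-beta genes. Tgfbr2, Ltbp1 and Tgfbr3 lie among the bulk of genes, and Tgfb2, Inhba and Ltbp2 lie in the tail at 2.62, 3.17 and 4.92.

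The other genes of the pathway were taken from a list of 32 activators, receptors, SMAD proteins and modulators, of which 31 were on the array and 28 had a kept probe. At an unadjusted limma p under 0.05, 3 of 28 had higher values and 1 had lower values, beside 4.15% and 3.45% of all genes, and none passed adjustment (limma adjusted p = 0.711 for each of these 4). Their median ratio was 0.17, beside 0.01 over all genes, and without litter 121 both were 0.02. The list's median was 0.28 without litter 112 and 0.29 without litter 116. Among transducers, Smad2, which carries the receptor signal, had ratios of 0.37, 0.60 and 0.29, averaging 0.42 ± 0.16 (SD over 3 litters). Smad7, which blocks the type I receptor, had ratios of 0.63, 1.08 and 0.34, averaging 0.68 ± 0.38 (SD over 3 litters). Fstl3, a secreted protein that traps activin, had ratios of 0.36, 0.57 and 0.82, averaging 0.59 ± 0.23 (SD over 3 litters). Smurf2, a ubiquitin ligase that directs SMAD proteins and receptors to degradation, was lower, with ratios of -0.43, -1.34 and -0.82, averaging -0.86 ± 0.46 (SD over 3 litters).

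The highest mean ratios of that list belonged to Thbs1, an activator of latent TGF-beta (0.59, 3.46 and 1.14), Pmepa1, a SMAD-induced inhibitor (-0.26, 1.59 and 1.16), and Skil, a SMAD corepressor (0.07, 1.34 and 0.65). None of these passed an unadjusted p of 0.05. Besides Smurf2, the lowest were Bambi, a decoy type I receptor (-0.04, -0.28 and -2.12), and Ltbp4, a further latency protein (0.07, -0.34 and -1.24), both of them low mainly in litter 121. Without litter 121 the count fell from 4 to 1 gene of the list, in a fit with fewer litters. Smurf2, Smad2 and Fstl3 then had means of -0.88, 0.49 and 0.47, against -0.86, 0.42 and 0.59 over 3 litters. Their unadjusted limma p values were 0.058, 0.055 and 0.059. The share of all genes in that fit is not given.

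Genes known to respond to TGF-beta in fibroblasts formed a second list, of which 31 are reported, all with a kept probe. Of these, 6 were higher and 0 lower at an unadjusted limma p under 0.05, where 4.15% and 3.45% of all genes were, and none passed adjustment. Without litter 116 the count was 4 higher and 2 lower. Junb, an AP-1 subunit, had ratios of 2.48, 2.17 and 1.57, averaging 2.08 ± 0.46 (SD over 3 litters; limma adjusted p = 0.634). Ctgf, a matricellular protein that YAP and TAZ also induce, had ratios of 1.55, 1.18 and 1.67, averaging 1.47 ± 0.26 (SD over 3 litters; limma adjusted p = 0.634).

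The other 4 that were higher were Timp3, an inhibitor of matrix metalloproteinases, at 1.15 ± 0.50, Smad7 as above, the transcriptional repressor Bhlhe40 at 0.87 ± 0.63 and the matrix protein Postn at 1.34 ± 1.05 (SD over 3 litters; limma adjusted p = 0.711 for each). Without litter 116 the means of Bhlhe40 and Postn fell to 0.53 and 0.74, at unadjusted limma p of 0.067 and 0.012. With no filter on dim probes the list counted 4 higher genes, both Bhlhe40 and Postn missing the unadjusted threshold. Several of the 6 genes answer to other signals as well, Junb and Ctgf among them. The median ratio of the list was 0.42 over the litters, against 0.01 for all genes, but by litter it was 0.07, 1.51 and 0.01 (112, 116 and 121), and without litter 116 it was 0.03. The median of the 10 fibroblast markers was also the highest in litter 116, at 1.95 beside 0.27 and -0.95 in litters 112 and 121, although Vim and Fbln1 had ratios below 0 there, and 3 of these markers, Col1a1, Col1a2 and Col3a1 (ratios of 2.75, 1.84 and 3.70 in that litter), are in both lists. Their part in the median of the response list was not tested. Loxl2, a collagen crosslinking enzyme, had the highest mean of the list at 2.16, made of 2.29, 4.19 and -0.01. Tgfbi, a matrix protein named for its induction by TGF-beta, had the lowest at -0.99, made of 0.55, -0.48 and -3.04. Hmga2, a chromatin protein, had ratios of -0.93, -1.68 and 0.01, and Snai1, a repressor of epithelial genes, of -0.60, 0.97 and -1.94.

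**Figure D4:**
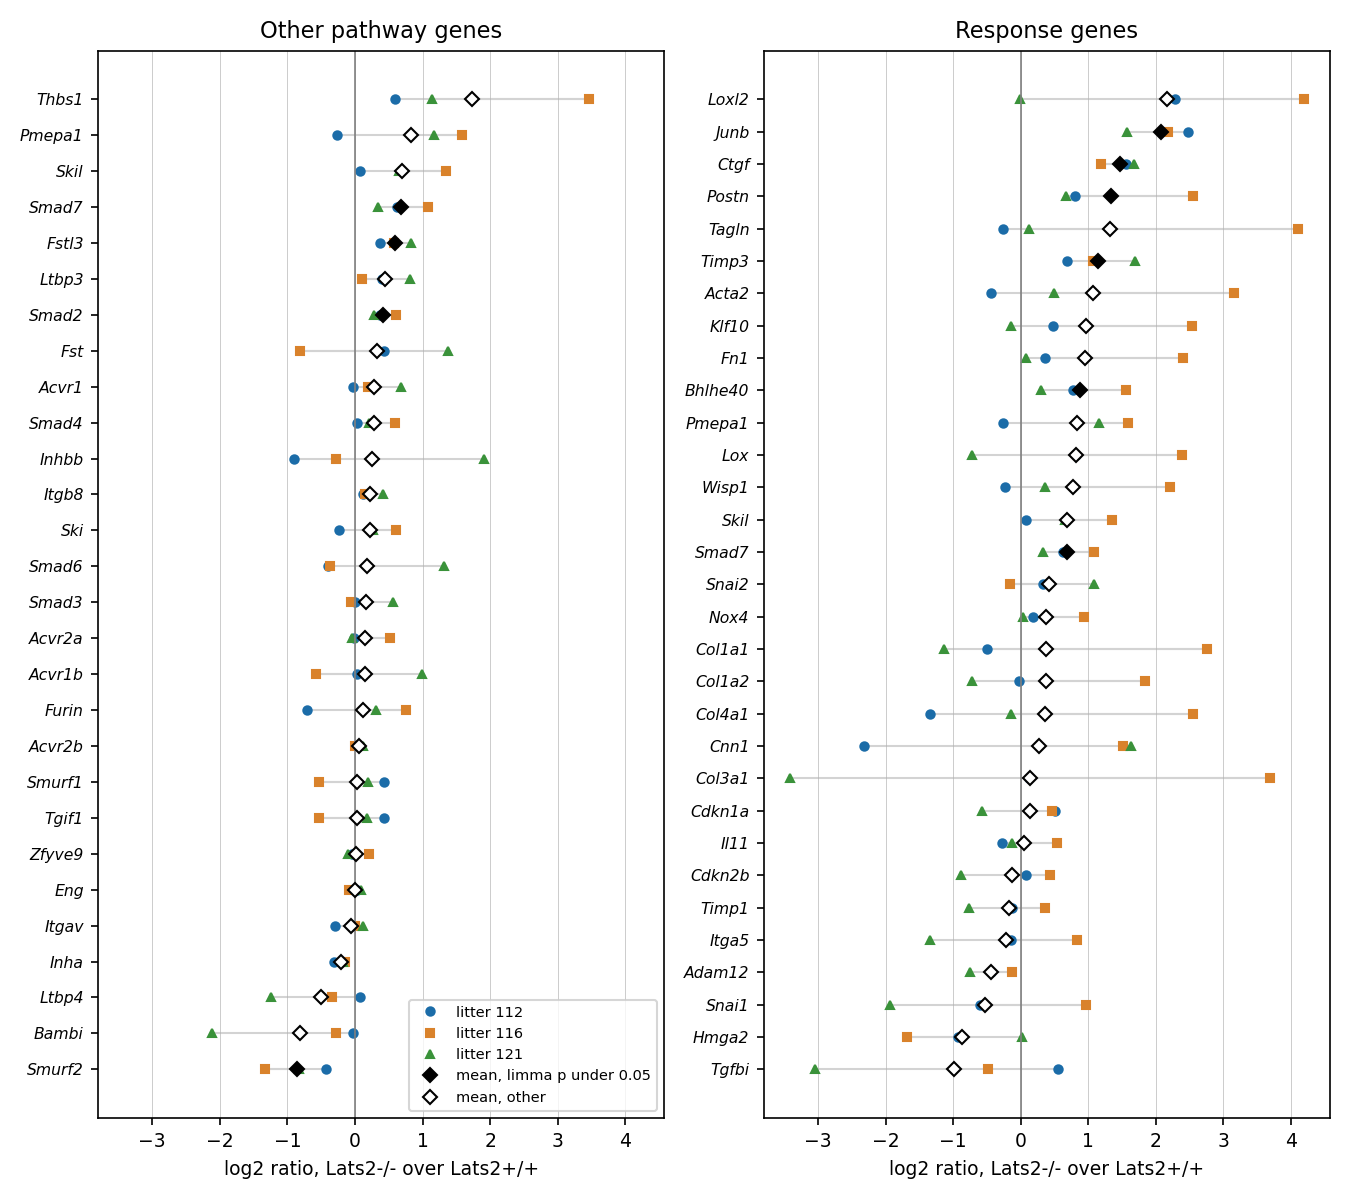
Log2 ratio of Lats2-/- over Lats2+/+ (horizontal axis) of 28 other pathway genes (left) and 31 response genes (right), sorted by mean: coloured symbols are litters, diamonds the mean of 3 litters, filled where the unadjusted limma p is under 0.05. Filled diamonds are Smad7, Fstl3, Smad2 and Smurf2 on the left and Junb, Ctgf, Postn, Timp3, Bhlhe40 and Smad7 on the right, and in the response list litter 116 reaches the highest ratios.

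Because Inhba had the widest range over extracts, the genes whose log2 signals followed it over the 6 extracts were looked up. Pearson's r was 0.998 for the transcript TC1650301, 0.995 for Apaf1, an activator of caspases, and 0.993 for 9530076L18. Among the TGF-beta genes and both lists, it was 0.962 for Thbs1, 0.960 for Pmepa1 and 0.958 for Acta2, the smooth muscle actin. These extracts share arrays by litter, 73 of 14726 genes exceeded 0.95, and most of the range comes from the single wild-type extract of litter 116. Acta2 had ratios of -0.43, 3.16 and 0.49, in the same order of litters as Inhba.

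**Figure D5:**
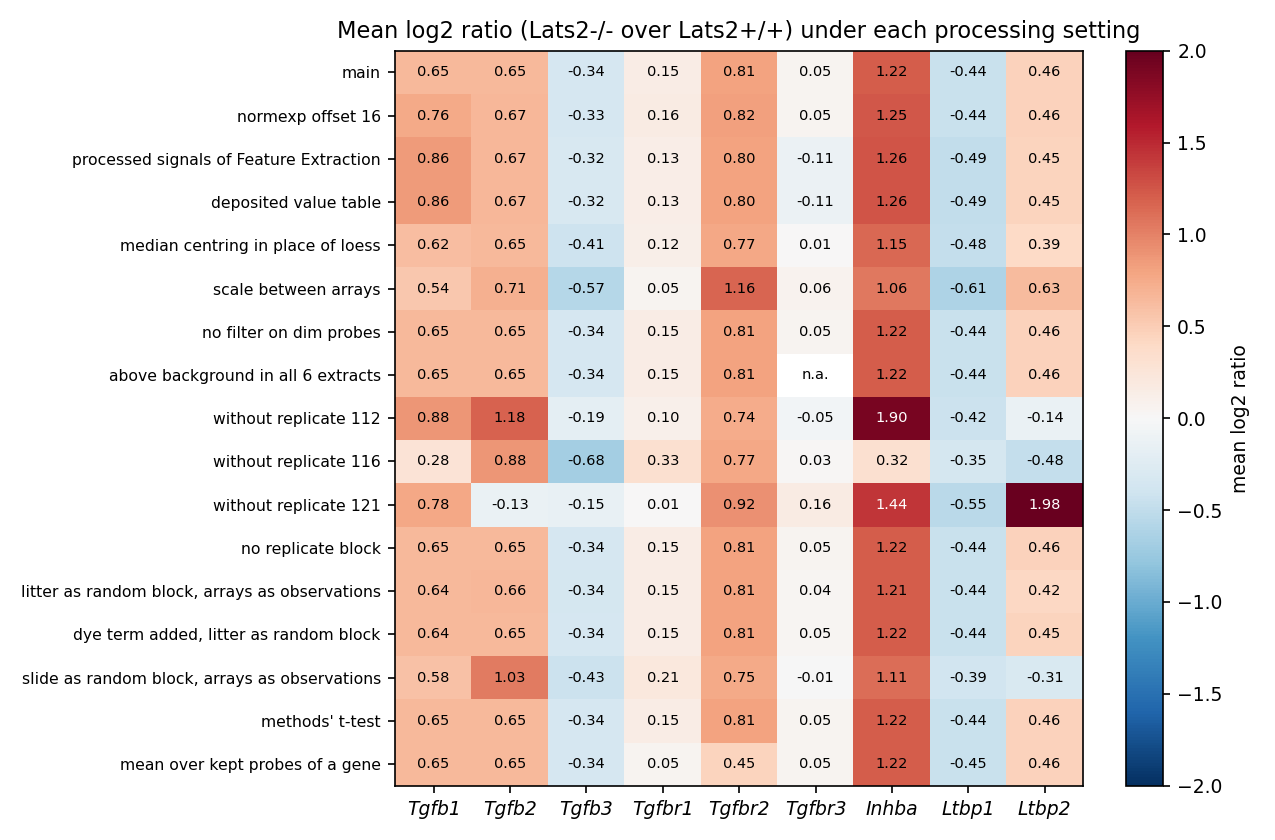
Mean log2 ratio of Lats2-/- over Lats2+/+ (numbers and colour, from blue for negative to red for positive) for each TGF-beta gene (columns) under the main processing and 16 alternatives (rows); n.a. marks a gene without a kept probe. The Tgfbr2 mean stays between 0.45 and 1.16 and the Ltbp1 mean between -0.61 and -0.35, while the means of Ltbp2, Tgfbr3 and Tgfb2 change sign in some rows.

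The Tgfbr2 difference was the only one of the 9 to pass adjustment in any alternative. It had an adjusted limma p of 0.0485 with arrays as observations and litter as a random block, 0.0147 with a dye term added to that fit and 0.00626 where slide was the block. All 3 fits take the 8 arrays of 3 pairs of extracts as observations, so their p-values may be too small, and most so in the last, which does not account for arrays sharing a litter. The unadjusted p was under 0.05 in 15 of 16 alternatives for Tgfbr2 and in 12 of 16 for Ltbp1. Taken as unpaired groups of 3 extracts, the genotypes differed in 0 of the 9 genes at that threshold. The share of all genes in that fit is not given, so this 0 cannot be read against the array.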

How the data were processed

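The 8 two-colour arrays compared Lats2-/- with Lats2+/+ MEF RNA of 3 litters on Agilent design 014868. The authors extracted the scans with Agilent's Feature Extraction software (10.7.3.1 in the headers of the files, 10.5.1.1 in the submitters' processing notes). The deposited files hold mean spot and local background intensity on a linear scale, without normalization, and processed intensity with background, spatial trend and dye bias removed within the array. A deposited log10 ratio, red divided by green, stands beside 0 or 1 quality flags. The authors' value table holds log10 ratios and differed by at most 0.005 from the scanner ratios turned to Lats2-/- over Lats2+/+ (column medians of 0).

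Mean intensities were corrected with normexp (offset 50) and loess in limma 3.58.1 (R 4.3.3), with control spots and 860 outlier gene spots (2 of them in the TGF-beta genes) at weight 0. No gene spot was saturated. Repeat spots and then the arrays of a litter, which hybridised the same extracts, were averaged, so n = 3 litters. Pairing is by litter and clone name in the labels. Log2 signals followed Aquantile between arrays. A probe was kept if well above background in at least 2 of 3 extracts of either genotype (22642 probes). Litter log2 ratios were tested against 0, two-sided, with lmFit and eBayes and Benjamini-Hochberg adjustment over all kept probes at 0.05. An exact two-sided sign-flip permutation test over litters was added after the data were seen. Intervals are 95%. A gene was read by its brightest kept probe, and kept probes are all listed for the TGF-beta genes. Symbols were updated through RefSeq by accession, symbol or synonym for 24375, 6301 and 2426 probes, and 8072 kept the file's name (Ctgf and Wisp1 are Ccn2 and Ccn4 there). Probe positions are those of the files (mm8), and their place in exons was not looked up, since annotation of that build was not used here. The scripts were tested on simulated data.

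The TGF-beta genes and both gene lists were chosen with earlier results of these data known. One gene of the response list and 1 of the neural markers are not reported here and were left out of the counts. Named were all probes of the 9 genes, and of each list the genes with a limma p under 0.05 and the 3 highest and 3 lowest means, besides Lats2, the genes most like Inhba and cell type markers. The alternatives were another normexp offset (16), processed signals, the value table, median centring, scaling between arrays, other filters (none, or all 6 extracts), leaving out each litter, unpaired groups, arrays as observations with litter or slide as a block or a dye term, the methods' t-test and the mean over probes. The number of litters limits the precision of every value.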

Additional observations from a re-analysis of the deposited data

Results flagged for a closer look

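4 of the TGF-beta genes had arrays that all pointed one way in one litter and the opposite way in another. The share of all genes that do so is not given, so this count is a description. By litter ratios alone, 6 of the 9 genes and 10305 of all 14727 genes had both signs. For Ltbp2 the ratio was 2.33 in litter 116 and -2.60 in litter 121, a difference of 4.92 on the log2 scale. For Inhba it was 3.02 in litter 116 and -0.15 in litter 112, a difference of 3.17. For Tgfb2 it was 2.19 in litter 121 and -0.42 in litter 112, a difference of 2.62. For Tgfb3 it was 0.33 in litter 116 and -0.71 in litter 121, a difference of 1.05. With 1 pair of extracts per litter, these differences between litters were not tested.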

How the results depend on the processing

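Over the 16 alternatives, Tgfb1, Tgfb3, Tgfbr1, Tgfbr2, Inhba and Ltbp1 kept the direction of their mean. The mean of Ltbp2 turned to -0.14 without litter 112, -0.48 without litter 116 and -0.31 with the random slide block (1.98 without litter 121). That of Tgfb2 turned to -0.13 without litter 121 (up to 1.18 without litter 112). The mean of Tgfbr3 turned to -0.11 with the processed signals and with the value table, -0.0484 without litter 112 and -0.0101 with the slide block (0.16 without litter 121). It had no kept probe when all 6 extracts had to be above background.

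The 2 genes of 9 at an unadjusted p under 0.05 became 1 to 3 when a litter was left out, 1 with the methods' t-test, 0 in the no replicate block fit, and 4 in the litter block and 4 in the dye term fits, where arrays were the observations. The 4 genes of the pathway list became 1 to 4 when a litter was left out, 8 with the litter block, 10 with the dye term and 10 with the slide block. The 6 of the response list became 6 to 10 when a litter was left out, 2 with no replicate block, 2 with the methods' t-test, 13 with the litter block, 12 with the dye term and 11 with the slide block. The 0 genes past the adjusted threshold in limma (1549 probes at an unadjusted p under 0.05) stayed 0 in 13 alternatives and became 270, 172 and 521 in the litter block, dye term and slide block fits. These fits count arrays of the same extracts as observations. Shares of all genes at the unadjusted threshold are given for the main fit only. Counts of the 9 genes and of both lists under the alternatives therefore cannot be read against the array. The response median was 0.83 without litter 112, 0.03 without litter 116 and 0.85 without litter 121. Pairing changed no call after adjustment. With 3 pairs of extracts, a difference inside an interval that spans 0 could not be told from 0. Tgfbr3 and 2 of the 3 Tgfbr2 probes were too close to background to resolve a change, and the dimmer Tgfbr1 probe was nearly as dim.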
